A study of Mus musculus with 8 samples.

Results

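The 9 genes described here encode CTCF and the cohesin machinery, the proteins that form chromatin loops, and their loci were read in loop lists from Hi-ChIP, an assay that joins chromatin conformation capture to immunoprecipitation of a chosen protein. A loop, a pair of anchors on 1 chromosome, was assigned to a gene when an anchor lay within 2 kb of one of its annotated transcription starts. This rule gave 122 distinct loops of the 249200 distinct loops in the series. They met at 8 of the 30542 anchors, 1 anchor for each of 8 genes, and Mau2 had none. No loop joined the anchors of a pair of these genes.

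The series compared FOXA1 and HNF4G Hi-ChIP in 2 cell lines of the KPC mouse model of pancreatic cancer, one from a primary tumor and one from a liver metastasis (liver mets), to ask how the loops at sites of each factor change with metastasis. All 8 samples were labelled WT and untreated, the engineered alleles of the model and the age of the animals were not given in the sources used here, and each context was represented by 1 line. Each of the 4 groups had 2 replicates joined in 1 list, so no spread between replicates could be calculated and no test between groups was run. The lists held 125623 loops for FOXA1 in liver mets, 104136 for FOXA1 in tumor, 78098 for HNF4G in liver mets and 76323 for HNF4G in tumor. The reads behind a loop and the depth of each library were not analysed here. All intervals below are 95% intervals, cover counting error only and take no account of the anchors that loops share. Labelled as pancreatic cancer cells, both lines had loops at the starts of 8 of 8 epithelial and ductal markers, with summed numbers of 174 to 296 per list and 3 to 62 for a single gene in a list. None of 4 leukocyte and none of 2 endothelial markers had an anchor, nor did the hepatocyte markers other than Apoa1 or the fibroblast markers other than Col1a1.

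Cohesin is a ring-shaped complex that encloses DNA and extrudes it into loops. SMC3 and RAD21 are subunits of the ring, and STAG1 is one of the alternative subunits that bind to it. NIPBL and MAU2 form the loader, which stimulates extrusion, whereas WAPL releases cohesin from chromatin. PDS5A and PDS5B bind the ring and take part in both its release and its protection. CTCF, a zinc finger protein, binds a long DNA motif and halts extruding cohesin, so that loops often end at CTCF sites. FOXA1, a forkhead factor, and HNF4G, a nuclear receptor, bind enhancers in endodermal tissues.

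Where a promoter sequence was at hand, the starts of 6 of these genes lay in sequence richer in GC than most promoters. Promoter sequences of 300 bases, taken from RefSeq on GRCm38, were found for 7 of the 9 genes. The GC content was 75.3% at Ctcf, 65% at Smc3, 73.7% at Stag1, 67% at Wapl, 80.3% at Pds5a and 75.7% at Pds5b, against a median of 52.7% over 32817 promoters. Mau2 had 2 promoter entries, with 56% and 42.7%, near and below that median. None of these promoters held a match to the FOXA motif (TGTTTAC), the HNF4 motif (CAAAGTCCA) or the CTCF core motif on either strand, and over all promoters of this length 3.65%, 0.475% and 0.558% did. The 250 bases before the start are shown for Smc3, which had the most loops, for Ctcf, which had the second most, and for Pds5a, which had the highest GC content, with CG dinucleotides in capitals.
Smc3 promoter, chr19:53600146-53600395, plus strand: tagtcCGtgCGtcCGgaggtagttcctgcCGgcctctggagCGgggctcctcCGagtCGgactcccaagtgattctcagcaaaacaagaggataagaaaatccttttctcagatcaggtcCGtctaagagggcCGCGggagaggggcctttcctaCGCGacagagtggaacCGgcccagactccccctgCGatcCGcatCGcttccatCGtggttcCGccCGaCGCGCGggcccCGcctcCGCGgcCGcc
Ctcf promoter, chr8:105636288-105636537, plus strand: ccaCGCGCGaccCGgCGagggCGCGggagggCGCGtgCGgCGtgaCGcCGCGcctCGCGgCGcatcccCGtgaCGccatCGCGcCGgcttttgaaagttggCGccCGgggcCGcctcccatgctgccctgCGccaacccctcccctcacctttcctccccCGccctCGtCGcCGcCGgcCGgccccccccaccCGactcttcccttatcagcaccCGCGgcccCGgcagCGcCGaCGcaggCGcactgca
Pds5a promoter, chr5:65698237-65698486, minus strand: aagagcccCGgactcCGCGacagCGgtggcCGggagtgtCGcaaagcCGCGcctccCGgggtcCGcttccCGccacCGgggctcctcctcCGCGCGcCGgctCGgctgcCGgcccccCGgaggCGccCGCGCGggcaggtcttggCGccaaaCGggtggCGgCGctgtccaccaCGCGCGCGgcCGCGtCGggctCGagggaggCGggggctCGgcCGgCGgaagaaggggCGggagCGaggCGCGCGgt

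Across the wider anchors, a FOXA match was found in 4 of the 8, those of Rad21, Smc3, Stag1 and Nipbl, and over all anchors 36.6% held one. No gene anchor held an HNF4 match, against 4.4% of all anchors. CTCF core matches were found in the Stag1 anchor alone, where there were 2, and 3.81% of all anchors held at least 1. The anchors differ in length, and the longer anchors offer more room for a match. In windows of 2 kb at the anchor midpoints, 2 of the 8 held a FOXA match, or 25%, against 30.8% over all anchors. In the same windows 1 of the 8 held a CTCF core match, against 3.01%, and none held an HNF4 match, against 3.26%. In the Smc3 anchor the FOXA match lay in intronic sequence, 549 bases downstream of the start. In the Rad21 anchor it lay 26 bases upstream of the start. The Stag1 CTCF core matches lay in exonic sequence close to the internal start of Stag1, with UTR annotation at both. The matches are in capitals in the stretches below, which are written on the strand of the match. The first pair shows the FOXA match at each end of a Smc3 loop that was present in all 4 lists.
Smc3 anchor, chr19:53600917-53600983, plus strand: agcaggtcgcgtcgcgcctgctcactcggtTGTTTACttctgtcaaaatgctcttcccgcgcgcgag
Smc3 partner at 188 kb upstream, chr19:53414448-53414514, plus strand: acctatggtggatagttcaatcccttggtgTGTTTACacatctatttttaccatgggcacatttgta
Smc3 partner at 45.6 kb upstream, chr19:53552187-53552253, minus strand: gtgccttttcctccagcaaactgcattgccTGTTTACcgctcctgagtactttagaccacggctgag
Rad21 anchor, chr15:51991764-51991788, plus strand: tcggcaggaTGTTTACggtcaaaaa
Stag1 anchor, first CTCF core match, chr9:100643564-100643593, plus strand: gcagcgcggCCAGCAGAGGGCggtcgggac
Stag1 anchor, second CTCF core match, chr9:100643622-100643651, plus strand: tggaaaatgCCACCAGATGGCgggttagga
A match describes these letters and does not show that a factor was bound.

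The number of loops ranged widely among the genes. Smc3 had 45 distinct loops and Ctcf 21, followed by Nipbl and Pds5a with 13 each, Rad21 with 10, Wapl with 9, Pds5b with 7 and Stag1 with 4. The median over the 10786 protein coding genes with an anchor was 16, so that only Smc3 and Ctcf lay above it. Of those genes 88.1% had fewer loops than Smc3 and 59.9% had fewer than Ctcf, whereas 6.38% had fewer than Stag1. An anchor at the start was itself found for 49.2% of 21924 annotated protein coding genes and for 8 of these 9.

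With FOXA1, Smc3 had 24 loops in liver mets (exact Poisson interval 15.4 to 35.7) and 25 in tumor (16.2 to 36.9). With HNF4G it had 18 in liver mets (10.7 to 28.4) and 14 in tumor (7.65 to 23.5). The intervals of the 4 lists overlapped. Starts within 5 kb, in place of 2 kb, raised the numbers to 37 and 39 with FOXA1 and to 28 and 27 with HNF4G. Ctcf had 12 loops in liver mets (6.2 to 21) and 7 in tumor (2.81 to 14.4) with FOXA1, and 10 (4.8 to 18.4) and 4 (1.09 to 10.2) with HNF4G. Its numbers were higher in both liver mets lists than in the tumor list of the same factor, with overlapping intervals. Numbers given for all lists at once follow the order liver mets then tumor, first for FOXA1 and then for HNF4G. Nipbl had 4, 6, 5 and 7 loops in this order, and its highest number was in the shortest list. Pds5a had 7, 5, 2 and 2 loops, so its larger numbers were in the FOXA1 lists, which are longer. Rad21 had 4, 3, 1 and 3, Stag1 1, 3, 1 and 2, Wapl 3, 3, 3 and 1, and Pds5b 3, 2, 4 and 2. For these 4 genes no list held more than 4 loops, and such numbers cannot separate the groups. The median over the 8 genes with an anchor was 4, 4, 3.5 and 2.5 loops, against 7, 6, 5 and 5 over all protein coding genes with an anchor.

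**Figure D1:**
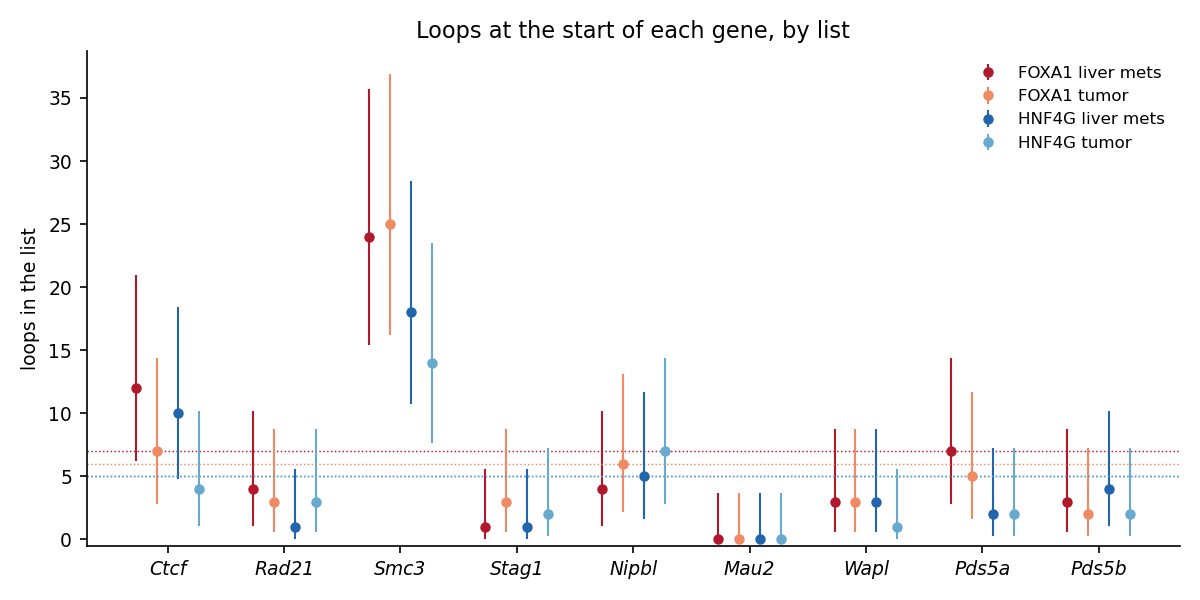
Number of loops (y axis) at the start of each of the 9 genes (x axis) in the 4 lists, with exact 95% Poisson intervals as bars. Dotted lines mark the median of each list over protein coding genes with an anchor, at 7, 6, 5 and 5 loops. Smc3 stands above these lines in every list, with 14 to 25 loops, and Mau2 is at 0.

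Scaled to the length of each list, the summed loops of the 9 genes did not separate the groups. With FOXA1 the sums were 58 loops in liver mets and 54 in tumor, and with HNF4G they were 44 and 35. The ratio of the shares was 0.89 for FOXA1 liver mets over FOXA1 tumor (exact Clopper-Pearson interval 0.604 to 1.31) and 1.23 for HNF4G liver mets over HNF4G tumor (0.77 to 1.97). Between the factors, FOXA1 over HNF4G, it was 1.13 in tumor (0.726 to 1.78) and 0.819 in liver mets (0.544 to 1.24). All 4 intervals included 1, and so did those of each single gene. The most extreme value for a gene with at least 10 loops in the pair of lists was that of Ctcf in HNF4G liver mets over tumor, a ratio of 2.44 with an interval of 0.705 to 10.7. These intervals leave room for differences of more than 1.5-fold in some comparisons, so equal looping is not shown.

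With a minimum of 20 loops summed over the pair of lists, only Smc3 could be read in all 4 comparisons, and Ctcf only in FOXA1 over HNF4G in liver mets. None of these 5 values was past 1.5-fold in either direction. Over all protein coding genes that met the minimum, 16.3% were past it in FOXA1 liver mets over tumor, 21.6% in HNF4G liver mets over tumor, 26.1% in FOXA1 over HNF4G in tumor and 22.3% in FOXA1 over HNF4G in liver mets. At these background shares 0 of 1 or 0 of 2 genes is not a result about Smc3 or Ctcf. The ratio for Smc3 was 0.796, 1.26, 1.31 and 0.829 in these comparisons, and that of Ctcf in the last was 0.746.

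**Figure D2:**
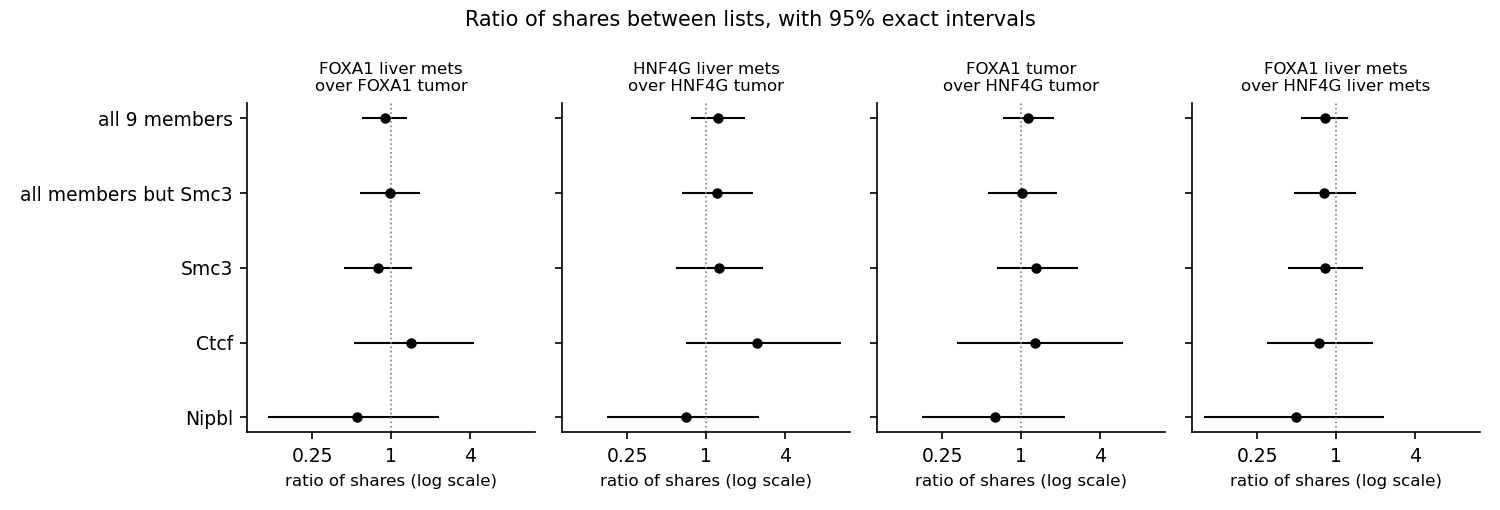
Ratio of the share of loops between lists (x axis, log scale) in the 4 comparisons, for all 9 genes, for all without Smc3, and for Smc3, Ctcf and Nipbl. Bars are exact 95% intervals for counting error, and every bar crosses the dotted line at 1.

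Promoter and distal partners were equal in number over the distinct loops. An anchor with any annotated start within 2 kb was called a promoter, and 61 partners were promoters and 61 were distal. Ctcf had 15 promoter partners against 6 distal, Pds5a 8 against 5, Pds5b 5 against 2 and Stag1 3 against 1. Smc3 had 18 against 27 and Rad21 2 against 8, so that at these genes distal partners were the more numerous. Nipbl had 6 against 7 and Wapl 4 against 5. With FOXA1, the share of promoter partners was 44.8% in liver mets (26 of 58, Wilson interval 32.7 to 57.5) and 37% in tumor (20 of 54, 25.4 to 50.4). With HNF4G it was 56.8% in liver mets (25 of 44, 42.2 to 70.3) and 62.9% in tumor (22 of 35, 46.3 to 76.8). Over all loops at protein coding starts, counted once for each end at such a start, the shares were 56.2%, 57.3%, 58.6% and 60.4%. The FOXA1 tumor share of the 9 genes lay below its background beyond counting error, and the other 3 intervals included theirs. Without Smc3 the FOXA1 tumor share was 44.8% (13 of 29, 28.4 to 62.5), which included the background, whereas that of Smc3 was 28% (7 of 25, 14.3 to 47.6). In FOXA1 liver mets the share of Smc3 was likewise below the background, at 29.2% (7 of 24, 14.9 to 49.2), and its shares with HNF4G had intervals that included theirs.

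Loops of the 9 genes ran from 9.44 to 1736 kb between anchor midpoints. The median span with FOXA1 was 163 kb in liver mets (interval from the order of the values 120 to 230) and 237 kb in tumor (164 to 399), against 176 and 152 kb over all loops at protein coding starts. With HNF4G it was 164 kb in liver mets (113 to 254) and 288 kb in tumor (188 to 458), against 127 and 147 kb. The intervals of both tumor lists lay above these background medians and those of both liver mets lists included them. The quartiles of the 9 genes were wide, from 99.7 to 507 kb in HNF4G tumor and from 111 to 513 kb in FOXA1 tumor. Among the genes, the median over distinct loops was lowest at Wapl with 138 kb and Pds5b with 152 kb, and highest at Stag1 with 682 kb and Rad21 with 608 kb. Nipbl had no loop shorter than 254 kb. Smc3 had a median of 200 kb, and 10 of its 45 loops were under 100 kb.

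**Figure D3:**
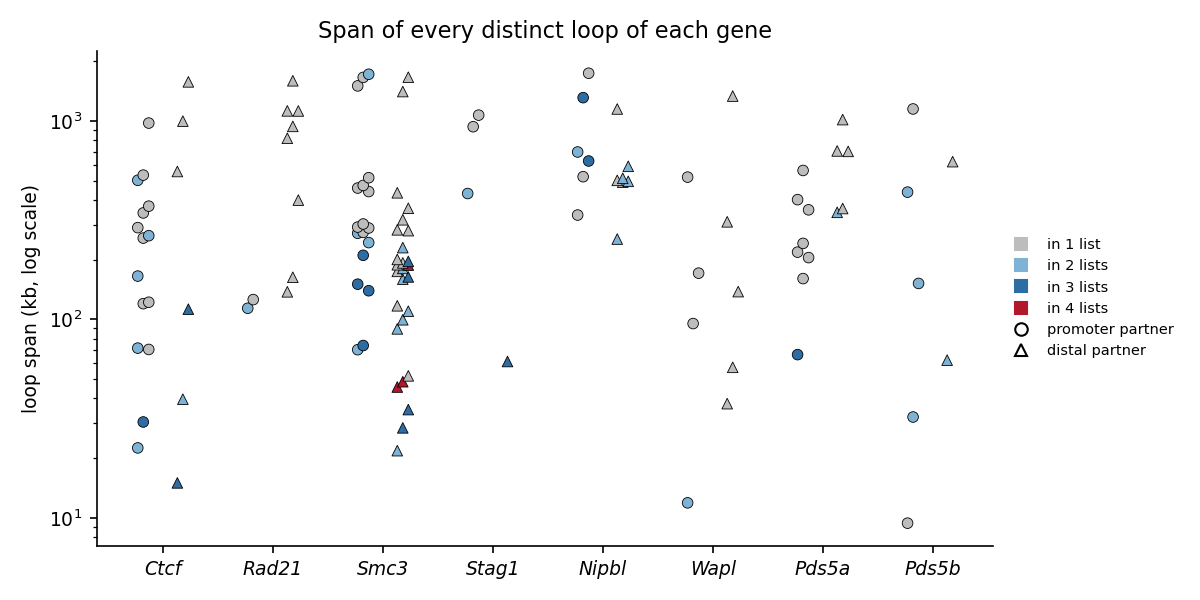
Span of each distinct loop (y axis, kb, log scale) at the 8 genes with an anchor (x axis). Circles are promoter and triangles distal partners, and the colour gives the number of lists that held the loop. All 3 loops found in 4 lists are at Smc3, and all Nipbl loops lie at 254 kb or more.

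By identical anchors, most loops of these genes were in a single list. Of the 122, 74 were in 1 list, 30 in 2, 15 in 3 and 3 in all 4. The share in 2 or more lists was 39.3% (Wilson interval 31.1 to 48.2), and it was 34.5% over all loops at protein coding starts. With 5 kb added to both ends of every anchor it was 58.2%, so that the majority turned to loops in more than 1 list. The background was not calculated with widened anchors, so 58.2% cannot be set against 34.5%. With identical anchors the share in 2 or more lists followed the span. It was 76% under 100 kb (19 of 25), 36.1% from 100 to 500 kb (22 of 61) and 19.4% from 500 to 2000 kb (7 of 36). Over all loops at protein coding starts it was 66.4%, 31.5% and 9.21%. By gene the share in 2 or more lists was 57.1% at Pds5b (4 of 7), 53.8% at Nipbl (7 of 13), 48.9% at Smc3 (22 of 45) and 42.9% at Ctcf (9 of 21), but 10% at Rad21 (1 of 10), 11.1% at Wapl (1 of 9) and 15.4% at Pds5a (2 of 13). The intervals for the genes with few loops were wide and overlapped, for example 1.79 to 40.4% at Rad21 and 29.1 to 76.8% at Nipbl.

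By factor, 56 loops were found with FOXA1 alone, 35 with HNF4G alone and 31 with both, which made the shared loops 35.6% of the 87 loops in either FOXA1 list and 47% of the 66 in either HNF4G list. Over all loops at protein coding starts these shares were 37.2% and 50.2%. By line, 42 loops were found in liver mets alone, 37 in tumor alone and 43 in both, or 50.6% of those in liver mets and 53.8% of those in tumor, with 42.7% and 45.8% over all loops at protein coding starts. Taken by single lists, 25 loops were shared between the lines with FOXA1, or 43.1% of the liver mets and 46.3% of the tumor loops, against 34.2% and 40.1% over all loops at protein coding starts. With HNF4G the lines shared 13 loops, or 29.5% and 37.1%, against 34.7% and 33.4%. In liver mets the factors shared 17 loops, or 29.3% of the FOXA1 and 38.6% of the HNF4G loops, against 28.8% and 43.4%. In tumor they shared 9 loops, or 16.7% and 25.7%, against 30.5% and 37.9%. These differences from the background were not tested.

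Each loop carries a deposited value, read here as the −log10 of an adjusted p from the values alone. Values near 1.87 to 1.99 and near 0.0889 to 0.171 are long runs of ties, so they rank no loop above another within a run. Between these runs many values followed the span. In FOXA1 liver mets, for example, loops of 160, 241, 356 and 437 kb had 1.31, 1.58, 1.73 and 1.8. Some loops departed from this order, such as one of 138 kb at Rad21 with 1.87. Values between the runs therefore cannot be read apart from distance and list. Of the 122 loops, 16 reached a value of 2 in some list: 12 at Smc3, 2 at Nipbl and 1 each at Rad21 and Pds5b. None of the 21 Ctcf loops did. Within a list the share at 2 or more was 13.8%, 13%, 2.27% and 17.1% for the 9 genes in the order used above, and 9.32%, 8.31%, 7.99% and 8.45% over all loops at protein coding starts, each within the interval of the 9 genes. Partners named below beyond the rule stated in the methods, among them those given by their value and those found in 3 lists, in 1, or in lists that differ in both line and factor, were chosen after their values were seen.

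Among the ring subunits, Smc3 (chr19:53600398-53645833, plus strand, anchor chr19:53599421-53602398) stood in the most densely joined neighbourhood. Its anchor, which also holds a start of AC137853.1, was joined in at least 1 list to 39 of the 46 anchors within 500 kb, or 84.8%. The median over protein coding genes with an anchor was 44.4%, and 97.3% of them had a lower share than Smc3. The partners of Smc3 were also joined to each other: in FOXA1 liver mets 132 of 276 pairs of partners were themselves listed as loops, or 47.8% (Wilson interval 42 to 53.7). The median over genes with at least 10 loops in that list was 24.4%, and 97.4% of them had a lower share. The share was 31.7% and 29.7% in the tumor lists of FOXA1 and HNF4G, and 21.6% in HNF4G liver mets, where 47.6% of genes had a lower share. Pairs of partners share anchors, so these intervals are too narrow.

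**Figure D4:**
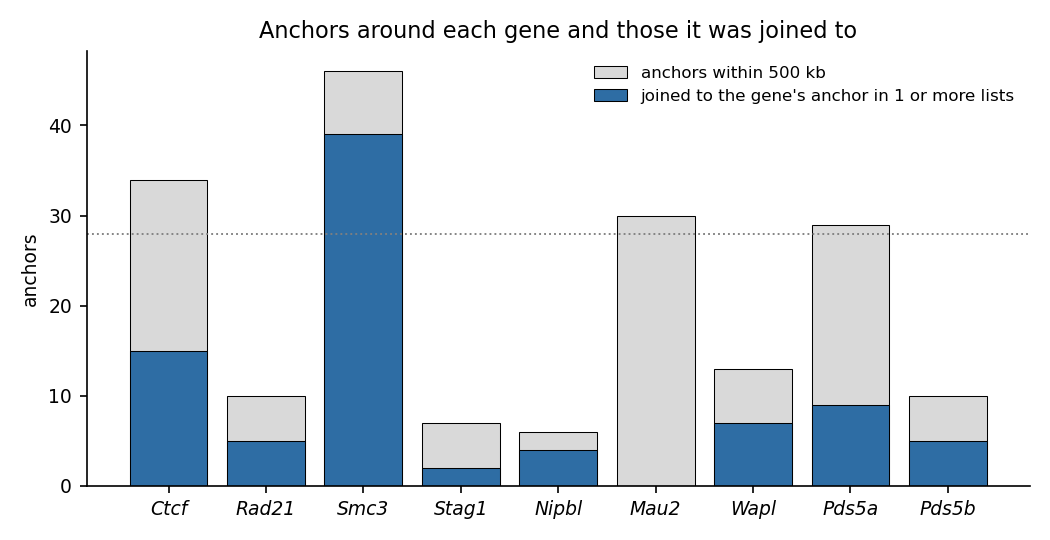
Anchors within 500 kb of each gene's anchor, or of the outermost start of Mau2 (grey bars, y axis in anchors), and those joined to it in at least 1 list (blue bars). Smc3 was joined to 39 of 46 and Mau2 to 0 of 30, and the dotted line marks the median of 28 anchors over protein coding genes with an anchor.

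The Smc3 partners lay mainly upstream, 28 of 45, and of its 12 loops with a value of 2 or more, 11 ran upstream. Of the 3 loops in all 4 lists, the one with the highest values joined Smc3 to an intergenic anchor 188 kb upstream (chr19:53411124-53415471), 20.5 kb from the start of Smndc1, which encodes a splicing factor. In liver mets its value was 2.61 with FOXA1 and 1.76 with HNF4G, and in tumor it was 2.90 and 3.14. The second, 45.6 kb upstream (chr19:53551928-53558592), lay 22.8 kb from the start of Dusp5, a phosphatase of MAP kinases, and had values of 0.673 and 0.459 in liver mets and of 0.897 and 0.171 in tumor. The third reached 48.5 kb downstream, just past the end of Smc3 at 4.54 kb from one of its annotated starts, with values of 0.0889 and 0.436 in liver mets and of 0.123 and 0.171 in tumor. The highest value at any of the 9 genes was 9.25, in FOXA1 tumor, for a Smc3 loop to an intergenic anchor 196 kb upstream, which had 1.44 in FOXA1 liver mets and 3.18 in HNF4G tumor. The promoter of Smndc1, 210 kb upstream, was joined with FOXA1 at 6.43 in liver mets and 4.89 in tumor, and with HNF4G at 1.80 in tumor. The start of the non-coding gene Mirt1, 150 kb upstream, was joined with HNF4G at 4.79 in liver mets and 2.84 in tumor, and with FOXA1 at 5.36 in liver mets. Neither of the last 2 loops was in the remaining list, but a further start of Mirt1, at 139 kb, was joined in FOXA1 tumor at 2.43 and in both liver mets lists.

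**Figure D5:**
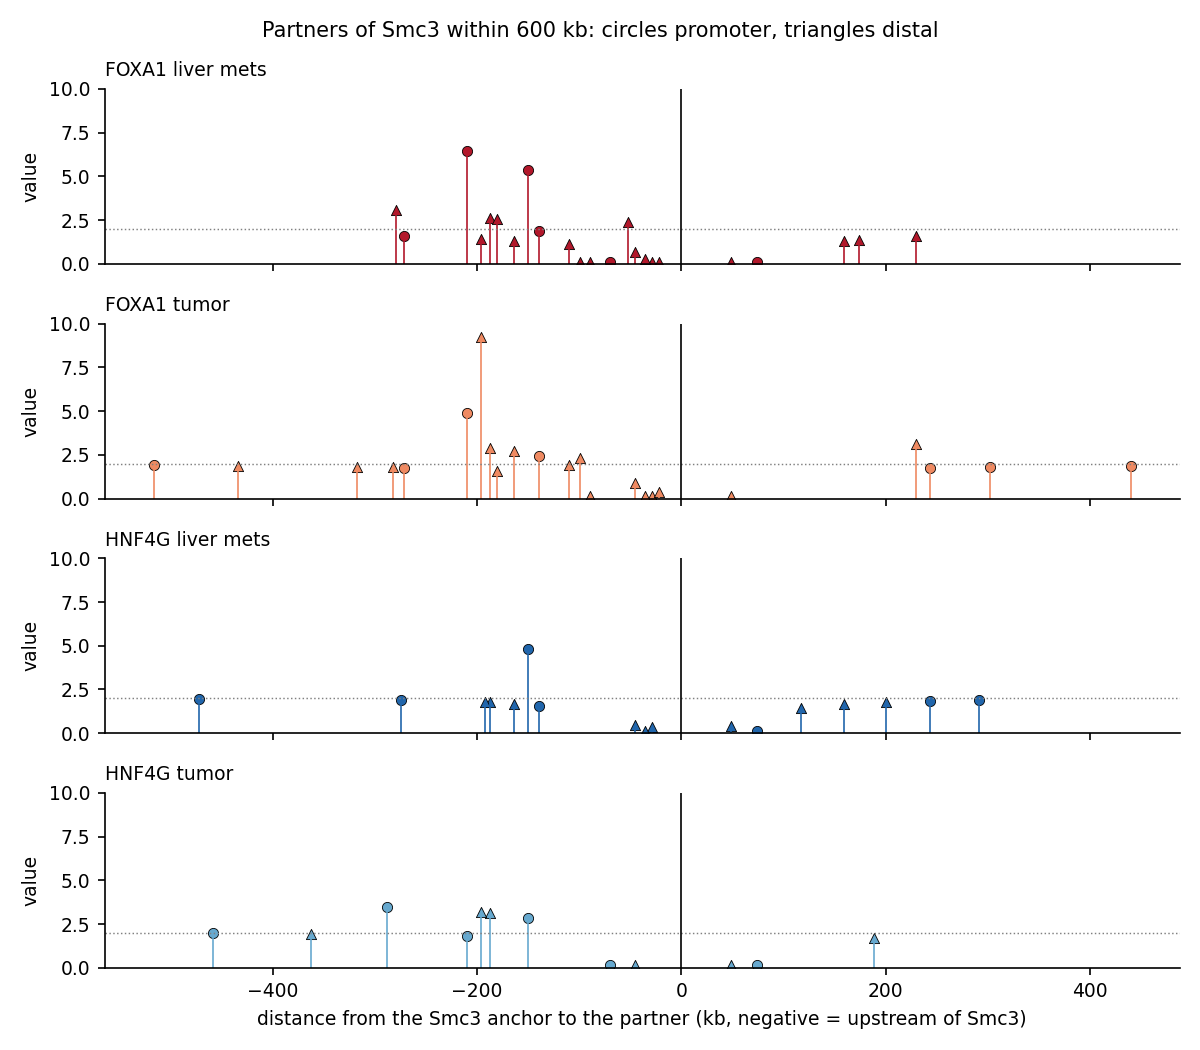
Deposited value (y axis, read as −log10 of an adjusted p) of each Smc3 loop within 600 kb against the distance of its partner (x axis, kb, negative upstream), one panel per list. Of the 12 loops that reach the dotted line at 2 in some list, 9 lie from 139 to 288 kb upstream, and the top value is 9.25 in FOXA1 tumor.

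Other Smc3 partners differed between lists. In both FOXA1 lists and neither HNF4G list were 7 loops, among them one 230 kb downstream to an intron of Rbm20, a splicing regulator, with values of 1.58 in liver mets and 3.12 in tumor. The FOXA1 lists are longer. The share of all loops at protein coding starts with this pattern, or with the other patterns named for single genes, was not calculated. The 7 loops are therefore not a result about Smc3. Another of these 7, with values of 2.55 and 1.60, ran 180 kb upstream to an intergenic anchor (chr19:53418491-53422351) that held a CTCF core match. Such a match was found in 2 of the 27 distal Smc3 partners, or 7.41%, and in 3.63% of all distal anchors. The other of the 2 lay 21.8 kb upstream. The match at 180 kb is shown with its surroundings.
Smc3 partner at 180 kb upstream, chr19:53419993-53420064, plus strand: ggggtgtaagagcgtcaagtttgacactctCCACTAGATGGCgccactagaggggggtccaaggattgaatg
Both HNF4G lists and neither FOXA1 list held 1 Smc3 loop, of 1716 kb, to the promoter shared by Vti1a and Zdhhc6, at the tied value of 1.99 in each. Both liver mets lists and neither tumor list held 1 loop, of 159 kb, to an intron of Rbm20, at 1.31 and 1.66. Other anchors at Rbm20 were joined in the tumor lists, such as an intron at 188 kb and the promoter at 73.8 kb with HNF4G and the intron at 230 kb with FOXA1. Promoters joined in a single list included Mxi1, a MYC antagonist, at 288 kb and 3.46 in HNF4G tumor, Pdcd4, a translation inhibitor, at 292 kb in HNF4G liver mets, Adra2a at 440 kb in FOXA1 tumor and Add3 at 458 kb in HNF4G tumor. Further starts of Mxi1, at 271 and 274 kb, and of Pdcd4, at 302 kb, were joined in other lists. Of the 27 distal Smc3 partners 12 held a FOXA match, or 44.4%, and 39.3% of all distal anchors did. These partners were longer, with a median of 2.62 kb against 2.23 kb. In windows of 2 kb at the anchor midpoints the order was the reverse, at 29.6% and 35%.

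Rad21 (chr15:51962240-51991747, minus strand, anchor chr15:51989703-51992907), the ring subunit that separase cleaves, had sparse surroundings, with 10 anchors within 500 kb. Its 1 loop found in 2 lists joined it to the promoter of Utp23, a ribosome biogenesis factor, 114 kb away, at 0.598 in FOXA1 liver mets and 1.07 in FOXA1 tumor. In HNF4G tumor it was joined to the promoter of the neighbouring Eif3h, a translation initiation subunit, 126 kb away, at 1.45. Anchors in introns of Eif3h, at 138 and 163 kb, were partners in FOXA1 liver mets. The highest value, 3.80, belonged to a loop of 816 kb to an intergenic anchor in FOXA1 liver mets, 283 kb from the nearest protein coding start, that of Trps1. Of its 10 loops 5 were longer than 500 kb, all of them to distal anchors.

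Stag1 (chr9:100597798-100959375, plus strand) had its anchor at chr9:100642196-100646149, 44.4 kb inside the gene from the outermost start, where 10 of its annotated starts lay. From the outermost start alone it had 0 loops in every list. It had 4 loops in all, and 7 anchors lay within 500 kb. A loop of 430 kb to the promoter of Msl2, a chromatin-modifying ubiquitin ligase, was in both FOXA1 lists, at 1.77 and 1.85, and in neither HNF4G list. A loop of 62.0 kb to an intergenic anchor, 10.2 kb from the start of Slc35g2, was in the other 3 lists, at the lower tied values, 0.123 to 0.171, and not in FOXA1 liver mets. Promoters of Cldn18, a tight junction gene, at 934 kb, and of Dbr1, which debranches intron lariats, at 1068 kb, were each joined in 1 tumor list.

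Of the loader genes, Nipbl (chr15:8290617-8444463, minus strand, anchor chr15:8441973-8447049) had long loops and few anchors around it. Only 6 anchors lay within 500 kb, and 4 of them were joined. The promoter of Nadk2, a mitochondrial NAD kinase, 627 kb away, was joined with HNF4G at 1.99 in liver mets and 3.93 in tumor, and with FOXA1 at 1.86 in liver mets. That of Lifr, the receptor of leukemia inhibitory factor, 1308 kb away, was joined in every list but HNF4G liver mets, each time at the higher tied value of its list. An anchor in an intron of Cplane1 at 254 kb, 2.54 kb from its start, was in both HNF4G lists and neither FOXA1 list, at 1.86 and 1.84. A wide anchor at 590 kb (chr15:9013743-9054862), which overlaps an exon of Ranbp3l, was in both FOXA1 lists and neither HNF4G list, at 1.85 and 1.90. An intergenic anchor at 496 kb was in both tumor lists and neither liver mets list, at 1.88 and 1.98. Neighbouring intergenic anchors, at 491 and 501 kb, were joined in HNF4G liver mets at the tied value of 1.99 and in HNF4G tumor at 3.76.

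Mau2 (chr8:70016123-70042734, minus strand), whose product is the partner of NIPBL, had no loop in any list, which allows up to 3.69 loops by an exact Poisson interval. Measured from its nearest annotated start, the closest anchors lay 36.8 kb away at the start of Gatad2a and 29.1 kb away at the start of Tm6sf2. Loops passed over it, with an anchor on each side, numbering 21 in liver mets and 16 in tumor with FOXA1, and 10 and 13 with HNF4G. Within 500 kb of its start there were 30 anchors, near the median of 28. About as many annotated protein coding genes had an anchor as had none, so the absence at 1 gene is not unusual.

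Ctcf (chr8:105636568-105682922, plus strand, anchor chr8:105635473-105637282) shares its anchor with starts of Agrp, Gm38384 and Gm5914, so its loops cannot be assigned to Ctcf alone. It was joined to 15 of the 34 anchors within 500 kb, or 44.1%, close to the median of 44.4%. Of the 3 loops in 3 lists, 1 joined it to the promoter of the neighbouring Ripor1 at 30.4 kb. The others reached an anchor at 15 kb that overlaps an exon of Ripor1, and an intron of Gfod2 at 113 kb. HNF4G tumor was the list without the loop in each case. The promoter of Tppp3, a tubulin polymerization protein, at 165 kb, and that of Enkd1, at 71.6 kb, were joined in both liver mets lists and neither tumor list, at 1.32 and 1.69 and at the low values of 0.0889 and 0.146. The promoter of the kinase gene Pskh1, at 264 kb, was joined in both HNF4G lists and neither FOXA1 list, at 1.87 in each. Farther away, the promoter of Esrp2, an epithelial splicing regulator, at 502 kb, was joined in FOXA1 tumor at 1.89 and in HNF4G liver mets at 1.98. The promoter of Cdh1, the gene for E-cadherin, at 974 kb, was joined with FOXA1 at the tied value of 1.87, and an intron of Cdh1, at 996 kb, with HNF4G at the tied value of 1.99, both in liver mets. In liver mets, 24.2% of the pairs of Ctcf partners were themselves listed with FOXA1 and 17.8% with HNF4G, near the medians of 24.4% and 21.9%.

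The release factor Wapl (chr14:34673928-34747983, plus strand, anchor chr14:34672416-34675376, which also holds a start of 5830448L01Rik) had 9 loops, of which 8 ran upstream. Its 1 loop in 2 lists reached the start of Gm49024, 11.9 kb away, in both HNF4G lists, at 0.328 and 0.15, and in neither FOXA1 list. The promoter of Bmpr1a, a receptor for bone morphogenetic proteins, was joined at 171 kb in HNF4G liver mets. All 3 FOXA1 tumor loops of Wapl went to distal anchors, at 138, 310 and 1332 kb, and all 3 HNF4G liver mets loops to promoters.

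Pds5a (chr5:65605721-65698273, minus strand, anchor chr5:65696833-65698717) was joined to the promoter of N4bp2, 66.4 kb away, in every list but FOXA1 liver mets, at the low tied values of 0.123, 0.146 and 0.171. Anchors around Rbm47, an RNA-binding protein gene, gave a partner in every list. An anchor at 346 kb, which overlaps an exon, was in both FOXA1 lists at 1.73 and 1.80 and in neither HNF4G list. The others were promoters at 356 kb in FOXA1 liver mets and at 401 kb in HNF4G tumor, and an intron at 361 kb in HNF4G liver mets. These are 4 different anchors, so 3 of the 4 loops counted as present in 1 list although each list had a loop to Rbm47. Starts of Smim14 were partners at 160, 205 and 241 kb, in the FOXA1 lists alone. Its paralog Pds5b (chr5:150673739-150810690, plus strand, anchor chr5:150673128-150675834), on the same chromosome, was joined to the promoter of Brca2, the homologous recombination gene, 152 kb away, in both liver mets lists and neither tumor list. The Brca2 loop had a value of 2.21 with FOXA1 and 1.65 with HNF4G. A loop of 62.3 kb to an intron of N4bp2l2 was in both FOXA1 lists, at 0.0889 and 0.123, and one of 32.2 kb to the start of Gm24630 in both HNF4G lists, at 0.146 and 0.171. The promoter of Stard13 was joined at 437 kb in FOXA1 liver mets and HNF4G tumor.

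Other genes of chromosome architecture varied as widely as the 9 described here. Of 10 other cohesin subunits and regulators 7 had an anchor. Cdca5, which encodes the cohesin protector sororin, had 32, 25, 22 and 18 loops in the order used above, at an anchor shared with Zfpl1. Smc1a, the partner of SMC3 in the ring, had 0, 0, 0 and 1, and Stag2, the alternative to STAG1, had 2, 2, 1 and 0, while Esco2, Espl1 and Ddx11 had no anchor. All 5 other architectural factors had an anchor, with 30, 19, 26 and 19 loops at Ldb1, a LIM domain-binding factor, and 8, 2, 1 and 7 at Yy1. Of 8 condensin genes 7 had one, led by Ncapd2 with 33, 28, 23 and 24 loops at an anchor shared with Gapdh. Of 5 germline paralogs only Smc1b had an anchor, with 6, 5, 3 and 4 loops, whereas Ctcfl, Rec8, Stag3 and Rad21l had none. Anchors were also shared at Smc1a (with Ribc1), Stag2 (Gm37564), Ldb1 (Pprc1), Yy1 (Gm34220) and Smc1b (Ribc2). Loops at a shared anchor cannot be assigned to 1 gene alone. Median loops per gene in these lists ranged from 0 to 9.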

How the data were processed

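Hi-ChIP for FOXA1 and HNF4G was available from 8 samples in 4 groups of 2 replicates, grouped by their titles. The authors aligned reads to mm10 (GRCm38) with HiC-Pro, version 3.1.0 per the labels, removed duplicates, assigned reads to DpnII fragments and called loops with hichipper. The authors deposited 1 list per group. How replicates were joined and how loops were filtered was not given in the sources used here. The deposited value per loop was read as the −log10 of an adjusted p from the values alone, which end at 20. The deposited display score followed from the value and was not used further. No depth per sample was given in these files, so the precision it sets is unknown.

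The 9 genes, the gene lists and the comparisons were chosen with earlier results of these data known. Starts came from GENCODE M21 on GRCm38, and coordinates count from 1. Anchors were identical between lists, and a loop was shared when both anchors were. Loops with an anchor within 2 kb of a start were counted per gene, once per list. Ratios are of shares of each list. Genes were called past 1.5-fold with a minimum of 20 loops summed over both lists. Values were compared with the minimum of 2. Poisson, Clopper-Pearson and Wilson intervals at 95%, and binomial order intervals for medians, were calculated with scipy 1.17.1 in Python 3.11.15 with pandas 2.3.3. Named partners were, per gene, loops in all 4 lists (the 2 with the highest median value), and loops in both lists of one line or one factor and neither of the other (up to 2 each, by highest value). Motif matches were exact and searched on both strands, and no match in the 8 anchors overlapped another. Alternatives were 0 and 5 kb windows, protein coding transcripts, the outermost start, values of 2 or more, spans of 20 kb or more, raw numbers, minimums of 10 and 40, leaving out Smc3, and anchors widened by 5 kb. The assignment of anchors to starts, the calls past 1.5-fold and the exact intervals were tested on simulated data. The simulated numbers of loops per list were larger than those at the minimum of 20. How often genes without a difference pass 1.5-fold at that minimum was therefore not tested.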

Additional observations from a re-analysis of the deposited data

How the results depend on the processing

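The sums over the 9 genes moved by more than 1.5-fold only with values of 2 or more, which left 8 loops in liver mets and 7 in tumor with FOXA1, and 1 and 6 with HNF4G. On those few loops the ratio was 0.165 for HNF4G liver mets over tumor and 3.85 for FOXA1 over HNF4G in liver mets, where raw numbers gave 1.32. Single genes moved more, as with starts within 5 kb Smc3 had 37, 39, 28 and 27 loops and from the outermost start Stag1 had 0 in every list. Leaving out Smc3, the gene with the most loops, or changing the window or the minimum span kept all 4 ratios within their intervals. Genes past 1.5-fold numbered 624, 568, 810 and 757 in the comparisons in their order in the report, 1828, 1747, 2143 and 2046 with a minimum of 10 loops and 85, 104, 171 and 146 with a minimum of 40. Raw numbers gave 1758 in the last comparison, and the part of the calls higher in the first list went from 42.1% to 85.2%, from 31.3% to 36%, from 28.9% to 84.6% and from 34.5% to 98.3%. With a minimum of 10, 4, 3, 3 and 2 of the 9 genes could be read. Of these 1 passed in each of the first 3 comparisons (Nipbl, Ctcf and Nipbl) and 0 in the last. Over all protein coding genes 1828 of 6862, 1747 of 5425 and 2143 of 6034 passed in the first 3. At such background shares these calls are not a result about Nipbl or Ctcf. With raw numbers Smc3 passed in FOXA1 over HNF4G in tumor, as 1 of 1 gene that could be read, and 999 of 3109 genes did. The share of promoter partners fell in every list with protein coding partner starts only, to 34.5%, 29.6%, 40.9% and 48.6% in the order used above. It also fell in every list when the partner had to hold a start, to 32.8%, 27.8%, 45.5% and 45.7%. Of these values, 40.9% and 45.7% left the interval of their list. The background was not calculated under these definitions. Over the 1 loop at 2 or more in HNF4G liver mets the share was 100%. Anchors widened by 5 kb put 58.2% of the loops in 2 or more lists, and the background was not calculated with widened anchors. Median spans stayed within their binomial 95% intervals in the alternatives run. No paired analysis was possible because each group had 1 list covering both replicates, and for the same reason no replicate could be left out.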
